A study of Sycon ciliatum with 26 samples.

Results

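Days 10 to 14 of regeneration were compared with days 6 to 8 in the calcareous sponge Sycon ciliatum, in libraries of structures that re-form after a whole animal has been dissociated into cells. The members are the 10 libraries that the labels place in these windows, 6 of days 6 to 8 and 4 of days 10 to 14, of 26 libraries in the series. The series also holds 15 other regenerating libraries, from days 1, 2, 3 to 4, 16 to 18 and 21 to 24, and 1 library of freshly dissociated adult cells, which was not used here. All regenerating libraries share the same start, a dissociated animal, and the labels name no treatment, genotype, strain or animal age. The day is given as a window, so the exact day of a library within days 6 to 8 or days 10 to 14 is not known; the series' design text gives a slightly shorter second window than the sample labels, which were followed. Nothing in the labels says whether the libraries of a window came from separate parent animals, so p-values measure the spread between these libraries, which may be technical.

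Sponges can rebuild a body from single cells: dissociated cells gather into aggregates, the aggregates acquire an outer epithelium, and feeding chambers lined by choanocytes (the flagellated collar cells that drive the water current) form again inside. In calcareous sponges, sclerocytes later secrete calcite spicules, and an exhalant opening, the osculum, completes the juvenile form. The comparison asks how much of the way to the last windows of the series, days 16 to 24, is covered between days 6 to 8 and days 10 to 14.

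For each library the number of reads was given for 35307 gene IDs, the same in all tables. The IDs carry no gene name or position, and 0 of 35307 matched the 26717 genes of the RefSeq table for this species, so no pathway, cell type marker or sequence could be assigned, the labelled material could not be checked against markers, and genes are described by ID and by their behaviour. Depth was higher in the later window in every library, from 11469047 to 12001364 counts at days 10 to 14 against 8328070 to 11306378 at days 6 to 8. The number of IDs with at least 1 count overlapped, from 26667 to 27141 against 26081 to 27218. Thinned to 8328070 counts each, the libraries of days 10 to 14 held 25967 to 26484 such IDs, against 25920 to 26660 at days 6 to 8. The 21 pairs of libraries within the windows all differed by more than counting noise, with a chi-square per ID of at least 24.0, so each library counted as 1 replicate.

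No gene ID passed edgeR's test of single IDs between days 6 to 8 and days 10 to 14, while DESeq2 called 19. The libraries are bulk RNA, in which fewer cells of a type and less RNA per cell cannot be told apart. In edgeR's quasi-likelihood test, with 25 regenerating libraries in one model, 0 of 23995 IDs (0%) passed an adjusted p (Benjamini-Hochberg) of 0.05, and the lowest was 0.532. An unadjusted p under 0.05 was found for 1411 IDs (5.88%), of which 744 (3.1%) were higher and 667 (2.78%) lower at days 10 to 14. DESeq2's Wald test gave 19 calls among the 17444 IDs with an adjusted p (0.109%), 17 of them higher at days 10 to 14. In 12 of these 17 IDs a single library of days 10 to 14 held over 50% of the window's summed CPM (counts scaled to the library total). The 4 libraries of days 10 to 14 lay above all 6 of days 6 to 8 for 146 IDs (0.608%) and below all 6 for 97 IDs (0.404%). For an ID without ties, 1 of the 210 divisions into 4 and 6 libraries sets its 4 highest apart, and 1 its 4 lowest. The shares were not tested against that level. Under upper-quartile scaling these were 120 and 112, so the balance of directions depends on the scaling. A removed library leaves fewer that can overlap, and without replicate 3 of days 10 to 14 these numbers were 467 and 315. Both together, 243, came to 503, 427 and 379 without replicates 3, 4 and 5 of days 6 to 8, and to 429, 675 and 506 without replicates 2, 4 and 5 of days 10 to 14.

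For most IDs the step was smaller than the spread of libraries within a window. The median absolute difference between the window means was 0.218 on the log2 CPM scale, whereas the median SD of an ID over libraries of one window, pooled over both, was 0.491. A share of 16.6% of IDs had a step larger than their own pooled SD. Spread alone puts some IDs past this mark, also without a difference between windows. The share was not tested against that level. Over all IDs the root mean square step was 0.458, beside the 0.473 that the spread of libraries gives for a difference of means of 6 and 4 libraries. The order of these values was not stable: the mean square of the step less that from spread was -0.014 over all IDs, 0.0165 over IDs averaging 5 CPM or more and 0.0698 over the IDs called in the contrast of days 16 to 24 with days 1 and 2. It was also above 0 without replicate 3 (0.0129) or 4 (0.00437) of days 6 to 8 and without replicate 3 (0.0205) or 4 (0.0161) of days 10 to 14. Of the variance among the 10 libraries, 10.8% lay between the windows. Any division of the libraries gives a share above 0, also without a difference between windows, and the 10.8% was not tested against such divisions. The spread itself was alike in both windows, with a median SD per ID of 0.457 at days 6 to 8 and 0.462 at days 10 to 14. Steps were widest among weakly expressed IDs, where the median absolute fitted log2 fold change was 0.380 at a mean under 5 CPM, against 0.183 at 5 to 50 CPM and 0.158 over 50 CPM.

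Few IDs switched between absent and present. Counts were 0 in all 6 libraries of days 6 to 8 and at least 1 in all 4 of days 10 to 14 for 4 IDs, and the reverse held for 7 IDs. None of these 11 IDs reached more than 10 counts in any of the 10 libraries. With the 10 libraries thinned to equal totals the numbers were 3 and 8, and without single libraries the sum lay between 14 and 29. It passed 1.5 times its value, at 17, 18 and 18, without replicates 2, 3 and 4 of days 6 to 8, and, at 19, 27 and 29, without replicates 2, 3 and 4 of days 10 to 14.

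The direction of the step was then read against the overall course, the contrast of days 16 to 24 with days 1 and 2. These 9 libraries are in neither window of the step, so no library enters both contrasts, although the scaling and the dispersion estimates are shared. In the course 4968 IDs were higher (20.7% of those tested) and 5563 lower (23.2%) at days 16 to 24 by an edgeR adjusted p under 0.05. Of these 10531 IDs (43.9%), 7058 (67.0%) had a step in the direction of their course and 3473 did not.

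The shift was opposite in both course classes and of similar size. Among the 4968 IDs that rose over the course, 3292 (66.3%) were higher at days 10 to 14 than at days 6 to 8, with a median step of 0.15 (quartiles -0.09 and 0.46) on the log2 scale. Among the 5563 IDs that fell over the course, 3766 (67.7%) were lower at days 10 to 14, with a median step of -0.14 (quartiles -0.50 and 0.06). For comparison, the median step was -0.01 over all 23995 IDs, of which 48.6% were higher, and -0.01 over the 13464 IDs not called in the course, of which 48.9% were higher. The median step of the course-higher IDs was 0.11 without replicate 5 of days 10 to 14 and 0.19 without replicate 3 of days 6 to 8. The plot of the step by course class shows both classes displaced to opposite sides of the IDs without a course call. Across the 23995 IDs the fitted steps and courses had a Pearson correlation of 0.463; IDs are not independent replicates, and the value is a description.

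**Figure D1:**
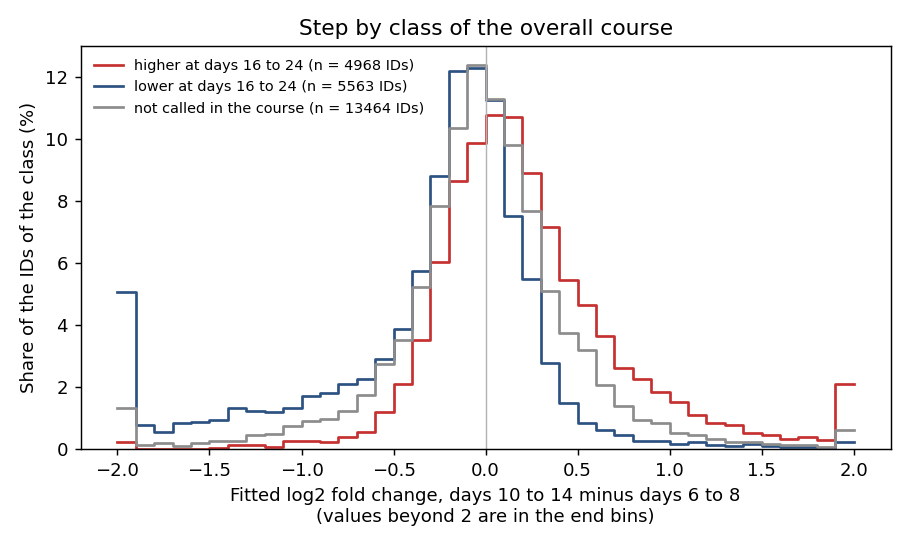
The x axis is the fitted log2 fold change of days 10 to 14 minus days 6 to 8 and the y axis the share of each class's IDs per bin (values beyond 2 in the end bins), for IDs higher (4968), lower (5563) or not called (13464) in the contrast of days 16 to 24 with days 1 and 2. The course-higher curve lies to the right (median 0.15) and the course-lower curve to the left (median -0.14) of the IDs not called (median -0.01), with wide overlap.

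The course IDs with a low unadjusted p in the step were mostly displaced along their course. The difference from the other course IDs was not tested. Of the 1411 IDs with an unadjusted step p under 0.05, 855 were called in the course, and 777 of these (90.9%) lay along it, against 78 that lay against it. Course-higher IDs made up 411 of the 744 IDs that were higher at this threshold, which is 8.27% of their class beside 3.1% of all IDs tested. Course-lower IDs made up 366 of the 667 that were lower, 6.58% of their class beside 2.78% of all IDs. The opposite combinations were scarce, with 44 course-higher IDs (0.886%) among the lower steps and 34 course-lower IDs (0.611%) among the higher steps. Steps along the course were also larger at this threshold, with a median absolute log2 fold change of 1.22 against 0.76 for steps against it. Of the 163 course IDs whose libraries did not overlap between the windows, 147 lay along the course and 16 against it. Non-overlapping higher IDs were 1.85% of the course-higher class beside 0.608% of all IDs tested, and lower ones 0.989% of the course-lower class beside 0.404%.

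The share along the course was also read library by library. Each library of days 10 to 14 was set against the mean of days 6 to 8, and the share of the 10531 course IDs displaced along the course was 56.2% in replicate 2, 61.7% in replicate 3, 64.1% in replicate 4 and 62.9% in replicate 5. All 4 libraries thus lay above 50%, but they were set against the same mean, so the 4 shares are not independent. The libraries of days 6 to 8, each set against the mean of the other 5, ranged from 36.9% in replicate 2 to 67.0% in replicate 3. The last value exceeds that of every library of days 10 to 14, so the shares of both windows overlap.

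Progress along the course was measured with 1 value per library, its position on the straight line from the mean of days 1 and 2 (position 0) to the mean of days 16 to 24 (position 1) in log2 CPM over all 23995 IDs. At days 6 to 8 the positions of replicates 1 to 6 were 0.662, 0.572, 0.777, 0.663, 0.709 and 0.701. At days 10 to 14 those of replicates 2 to 5 were 0.787, 0.773, 0.805 and 0.861. The windows overlapped by 1 pair, as replicate 3 of days 6 to 8 lay just above replicate 3 of days 10 to 14. The earlier window had a mean position of 0.681 ± 0.0677 (SD, n = 6) and the later one of 0.806 ± 0.0386 (SD, n = 4), a difference of 0.125. A two-sided exact permutation test over the 10 libraries gave p = 0.019; the smallest p this design allows is 0.00952. The step thus covered 0.125 of the distance between the ends of the course. The test compares this difference of means with that of relabelled libraries, and does not set it against the range within a window. The libraries of days 6 to 8 alone ranged from 0.572 to 0.777, and the libraries of a window may be technical replicates. With all libraries thinned to 7425481 counts the difference was 0.124 (exact permutation p = 0.019).

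**Figure D2:**
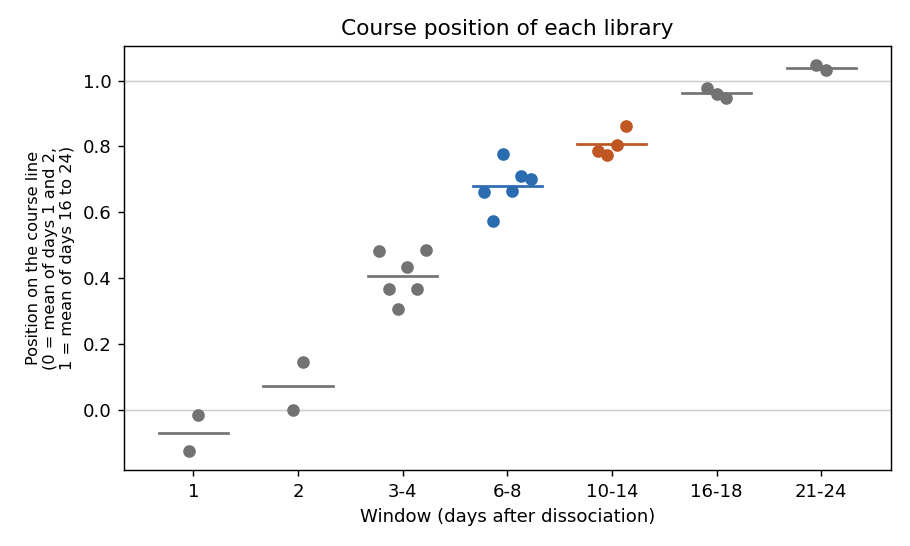
Each point is 1 library, placed by its window of days after dissociation (x axis) and its position on the line from the mean of days 1 and 2 (0) to the mean of days 16 to 24 (1); bars are window means. Days 10 to 14 (orange, mean 0.806) lie above days 6 to 8 (blue, mean 0.681) except for 1 overlapping pair, and the end windows, which define the line, sit near 0 and 1.

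The windows on either side give the scale of this step. Days 3 to 4, whose libraries do not define the line either, had a mean position of 0.406 ± 0.0722 (SD, n = 6), so the preceding step covered 0.275. Days 16 to 18 had a mean of 0.961 ± 0.0162 (SD, n = 3), which is 0.155 above days 10 to 14, but these libraries help to define the end of the line. The windows differ in length and are not evenly spaced in days, and the steps were not scaled to time. Neighbouring steps share a window, and differences between them were not tested.

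Positions were also read from each course class alone. IDs higher in the course gave a mean of 0.623 ± 0.0834 (SD, n = 6) for the earlier window and 0.779 ± 0.0402 (SD, n = 4) for the later one. IDs lower in the course gave 0.721 ± 0.0771 (SD, n = 6) and 0.834 ± 0.0395 (SD, n = 4). The ranges of the windows overlapped in both classes, from 0.502 to 0.737 against 0.729 to 0.822 for the former and from 0.612 to 0.811 against 0.793 to 0.877 for the latter. The course line accounted for 21.6% of the mean square of the step (0.0453 of 0.210 on the squared log2 scale), of which the spread of positions within windows gives 0.00328. The share on the line was 36.8% over course IDs only and 35.2% over IDs with a mean level of 5 CPM or more.

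The step was larger where the course change was larger, a description with no test. Of the 3166 course IDs whose course change was under 1 on the log2 scale, 56.7% were displaced along the course, with a median step toward it of 0.04. The share was 63.0% of 3324 IDs with a course change of 1 to 2 (median 0.10) and 73.5% of 2064 IDs with a change of 2 to 4 (median 0.31). It reached 83.5% of 1977 IDs with a change over 4, with a median step of 0.93 and quartiles of 0.30 and 1.60. As a share of each ID's own course, the median step was 5.11%, 7.39%, 11.5% and 15.6% in these classes. Large course changes were found among weakly expressed IDs, with a median level of 2.41 CPM over 4 and 21.9 CPM under 1. By level, the share along the course was 66.7% at a mean under 5 CPM, 65.2% at 5 to 50 CPM and 73.0% over 50 CPM. The median step toward the course was 0.27, 0.11 and 0.12 in the same classes, so the weakly expressed IDs had the larger steps, and the parts of level and course size were not separated.

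The share of the course passed at days 3 to 4 also separated the IDs, a description with no test. The libraries of days 3 to 4 are used in neither contrast, but the ends of the course come from the libraries that define it. Among 2299 course IDs that had passed under 25% of their course by days 3 to 4, 82.2% were displaced along the course in the step, with a median of 0.37 on the log2 scale and 21.0% of the ID's course. Among 6468 IDs that had passed 25 to 75%, 67.1% did so, with a median of 0.14. Among 1764 IDs that had already passed over 75%, 47.0% did so, with a median of -0.02. This order held for rising IDs (80.7%, 65.9% and 45.1%) and for falling IDs (83.9%, 68.1% and 48.5%). The median absolute course change was 1.81, 1.54 and 1.13 in the same classes, so the parts of place and course size were not separated. By construction, an ID past 75% has under 25% of its course left. The plot of the step by course size and by place shows both gradients.

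**Figure D3:**
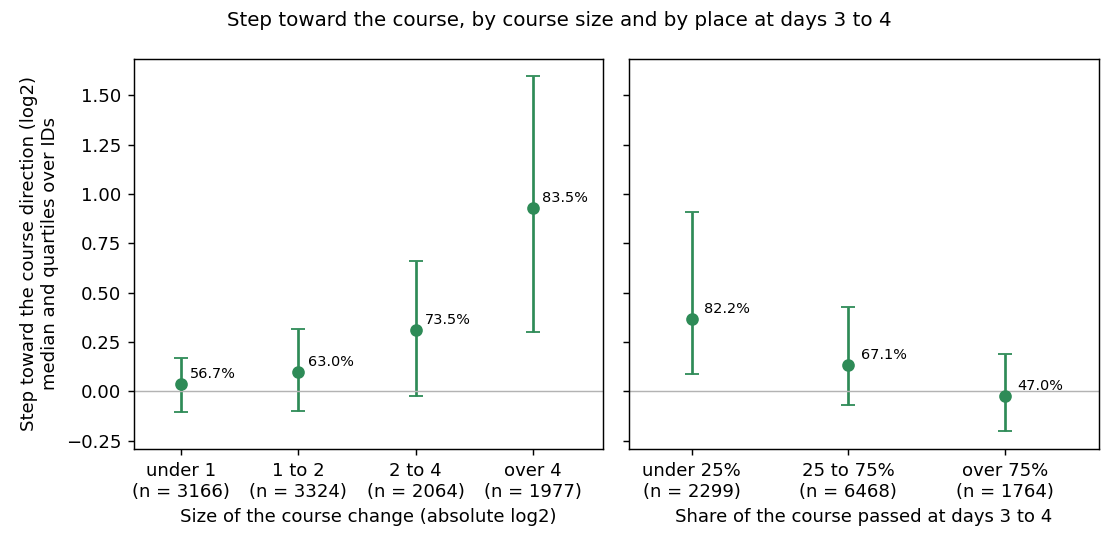
The y axis is the fitted step of days 10 to 14 minus days 6 to 8, signed so that positive values run along the course (log2), as median (point) and quartiles (bars) over IDs; percentages are the shares of IDs that run along it. Left, IDs are grouped by the size of their course change; right, by the share of the course passed at days 3 to 4. The median rises from 0.04 to 0.93 with course size and drops from 0.37 to -0.02 with the share already passed.

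Seen per ID, most of the course was over before this step. Among the 7365 course IDs with an absolute course change of at least 1 on the log2 scale, the median ID stood at 44.2% of its course in the libraries of days 3 to 4. The median was 71.8% (quartiles 52.6% and 89.2%) in those of days 6 to 8 and 82.7% (quartiles 65.9% and 97.0%) in those of days 10 to 14. The share of these IDs past 50% of their course was, in the same order, 42.1%, 77.2% and 87.1%. The share already at or past the level of days 16 to 24 was 13.3% at days 6 to 8 and 20.1% at days 10 to 14.

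Named IDs were the 2 of lowest unadjusted p in each direction among IDs without overlap between the windows and with a mean of at least 10 CPM in the higher window, a pool of 80 higher and 34 lower IDs. None passes the adjusted threshold in edgeR. Levels are CPM on totals scaled by trimmed mean of M-values (TMM) and are compared between libraries only. What these genes encode is not given in the files.

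MSTRG.32449 stood at 18.6, 10.7, 24.9, 22.6, 15.1 and 16.5 CPM in replicates 1 to 6 of days 6 to 8. In replicates 2 to 5 of days 10 to 14 it stood at 32.6, 37.1, 31.3 and 35.1 CPM. All later libraries were above all earlier ones, and the later values lay closer together. The means were 18.1 ± 5.19 CPM (SD, n = 6) and 34.03 ± 2.56 CPM (SD, n = 4), a fitted log2 fold change of 0.91 (edgeR unadjusted p = 7.97e-05, adjusted p = 0.532; DESeq2 adjusted p = 0.0115). This was the lowest unadjusted p of all IDs. Before days 6 to 8, with their 18.1 CPM, the means were 17.1 CPM at day 1, 15.3 CPM at day 2 and 13.9 CPM at days 3 to 4. The means after the step were 43.4 CPM at days 16 to 18 and 76.4 CPM at days 21 to 24 (course log2 fold change 1.83, edgeR adjusted p = 9.44e-07).

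MSTRG.28809 ranged from 0.337 to 9.05 CPM, with a median of 2.80, in the 6 libraries of days 6 to 8. At days 10 to 14 it was at 64.6, 11.1, 12.2 and 353 CPM in replicates 2 to 5. The windows did not overlap, but replicate 5 held most of the later signal. The means were 3.45 ± 3.07 CPM (SD, n = 6) and 110 ± 164 CPM (SD, n = 4), a 32.0-fold ratio, and without replicate 5 the later mean was 29.3 CPM, an 8.50-fold ratio (fitted log2 fold change 4.99, edgeR unadjusted p = 0.000342, adjusted p = 0.532; DESeq2 adjusted p = 0.00898). Without replicate 5 the fitted log2 fold change was 3.08 (edgeR adjusted p = 0.999). It had no call in the course (log2 fold change 1.37, edgeR adjusted p = 0.373) and did not follow the order of the windows. Days 3 to 4 had a mean of 58.9 ± 95.4 CPM (SD, n = 6), days 16 to 18 one of 3.01 ± 3.29 CPM (SD, n = 3) and days 21 to 24 one of 35.3 ± 8.52 CPM (SD, n = 2).

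MSTRG.32823 stood at 27.9, 39.7, 32.7, 30.4, 47.9 and 40.8 CPM in replicates 1 to 6 of days 6 to 8. In replicates 2 to 5 of days 10 to 14 it stood at 25.1, 18.3, 26.7 and 21.2 CPM. The highest later value lay just below the lowest earlier one. The means were 36.6 ± 7.53 CPM (SD, n = 6) and 22.8 ± 3.79 CPM (SD, n = 4), a fitted log2 fold change of -0.68 (edgeR unadjusted p = 0.00126, adjusted p = 0.588; DESeq2 adjusted p = 0.130). It ran along its course, in which it fell from means of 47.8 CPM at day 1 and 62.8 CPM at day 2 to 15.0 CPM at days 16 to 18 and 18.4 CPM at days 21 to 24 (log2 fold change -1.72, edgeR adjusted p = 7.16e-07).

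MSTRG.1599 stood at 19.0, 23.7, 17.6, 16.4, 22.8 and 20.8 CPM in replicates 1 to 6 of days 6 to 8. At days 10 to 14 it stood at 14.2, 16.1, 14.1 and 15.0 CPM in replicates 2 to 5. The gap between the windows was small, from 16.1 to 16.4 CPM. The means were 20.03 ± 2.90 CPM (SD, n = 6) and 14.9 ± 0.921 CPM (SD, n = 4), a fitted log2 fold change of -0.43 (edgeR unadjusted p = 0.00586, adjusted p = 0.729; DESeq2 adjusted p = 0.300). Its course change was of similar size, -0.53 on the log2 scale (edgeR adjusted p = 0.00522), and the means of the later windows, 17.0 CPM at days 16 to 18 and 15.8 CPM at days 21 to 24, were not below that of days 10 to 14.

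**Figure D4:**
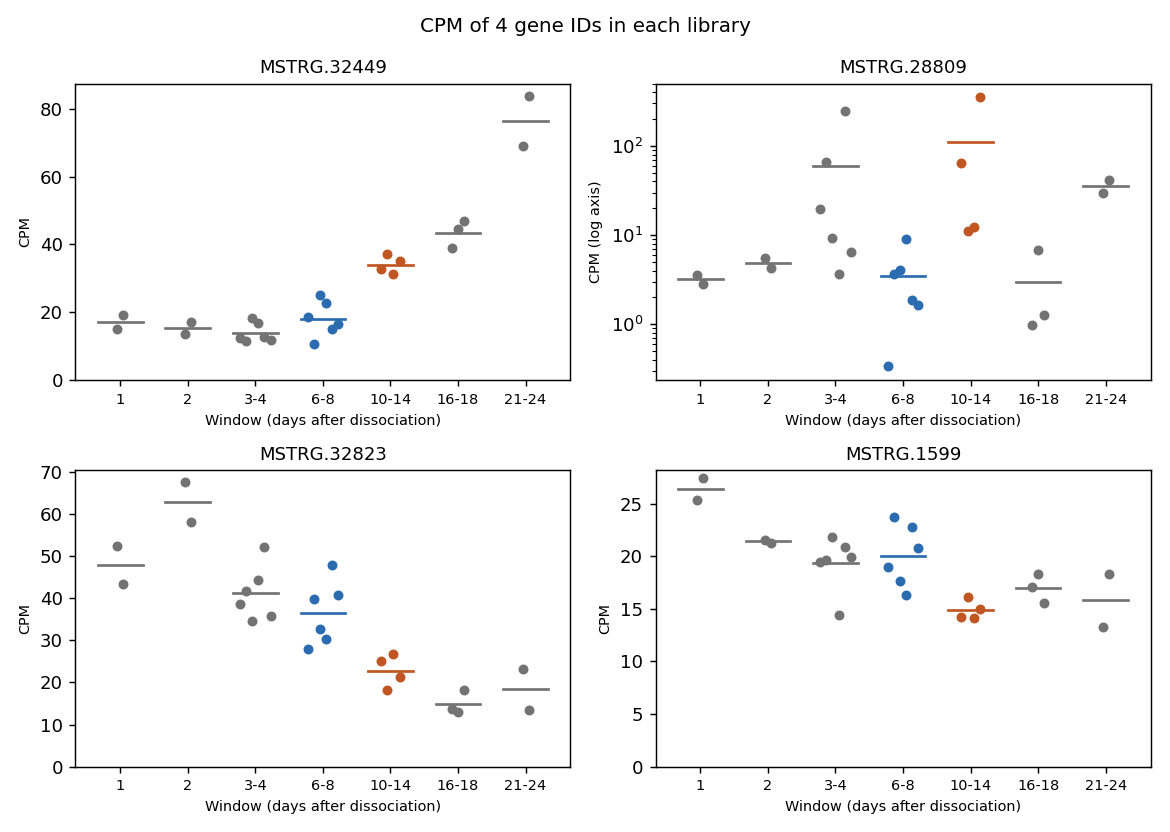
Each panel shows 1 gene ID, with CPM (TMM-scaled) on the y axis, logarithmic for MSTRG.28809 only, and the window of days after dissociation on the x axis; points are libraries and bars window means, with days 6 to 8 in blue and days 10 to 14 in orange. The blue and orange points do not overlap in any panel, and for MSTRG.28809 a single library, at 353 CPM, lies far above the others of days 10 to 14.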

How the data were processed

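Per the labels' protocols, RNA was extracted with Trizol and mRNA libraries were made with the Lexogen SENSE kit. The submitters' processing notes name Trimmomatic 0.36, HISAT2, StringTie, featureCounts, DESeq2 and Bowtie2 without roles; build, annotation and strand are not given in the sources used here. The authors deposited whole-number read counts for each ID, one file a library, without normalization. IDs can split a gene or share reads with overlapping IDs or near-identical copies, so single values are uncertain to that degree.

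Groups and replicate numbers follow the titles. Across all genes, edgeR 4.0.16 (R 4.3.3; filterByExpr, TMM, glmQLFit with robust = TRUE) was fitted to 25 libraries with the window as factor, leaving out 11312 IDs, with two-sided tests adjusted by Benjamini and Hochberg at 0.05. The common dispersion was 0.173. Log2 CPM used a prior count of 2. DESeq2 1.42.0 was an alternative. Other alternatives were scaling, filters, thinning, replicate blocks, the 10 libraries alone and leaving out libraries. The procedure was also run on simulated counts. The outcome is not reported here, so the power of the edgeR test is not given. Named IDs were the 2 lowest unadjusted p per direction without overlap and with at least 10 CPM in the higher window. The comparison, lists and tests were chosen with earlier results of these data known.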

Additional observations from a re-analysis of the deposited data

Results flagged for a closer look

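Among 28 sets of values in the windows of 4 and 6 libraries, 1 had a library apart from the others by Dixon's test; chance gives about 1 in 20 for normally distributed values. It is MSTRG.28809 at days 10 to 14, with 353 CPM in replicate 5 against 11.1 to 64.6 CPM in the other 3 libraries. The source of this value was not tested.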

How the results depend on the processing

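edgeR called 0 IDs for the step under the 9 other edgeR settings and without each of the 10 libraries in turn, while DESeq2 called 19. The difference in course position lay between 0.102 and 0.145 over 26 alternatives, with exact permutation p from 0.00952 to 0.0476. The share of course IDs along the course was 71.5% at a course change of at least 1, 71.2% for a course from day 1 to days 21 to 24, and 64.2% to 69.7% without single libraries. The median step of course-higher IDs was 0.117 under upper-quartile scaling, 0.115 with the set label as a block and 0.107 to 0.194 without single libraries; that of course-lower IDs lay between -0.183 and -0.0991 over its 29 alternatives. The step's mean square less the part from library spread was -0.014 and lay between -0.0481 and 0.0698, above 0 at 5 CPM, over course IDs and without replicate 3 or 4 of either window. With a filter at 5 CPM on the mean, 6931 IDs were called in the course, 834 had an unadjusted step p under 0.05 and 147 did not overlap. By construction this filter tests fewer IDs, so these numbers are lower even where the shares are not. Without it, 5.36% of IDs with a mean under 5 CPM had an unadjusted edgeR step p under 0.05. The share was 6.35% at 5 to 50 CPM and 6.24% over 50 CPM. IDs without overlap numbered 311 to 782 without single libraries: by construction more pass. IDs present in 1 window only numbered 14 to 29 in the same fits. The balance of IDs at an unadjusted p under 0.05 was 744 higher to 667 lower as reported, 661 to 781 under upper-quartile scaling, 774 to 813 with DESeq2, 663 to 668 without replicate 1 of days 6 to 8 and 574 to 642 with the set label as a block.

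Same-numbered libraries of both windows did not deviate together (correlations of deviations from -0.322 to 0.386 by title and -0.297 to 0.0989 by set label), so the numbers were not taken to pair them. With the title number as a replicate block edgeR called 0 IDs, 1100 IDs had an unadjusted p under 0.05 and 69.4% of course IDs ran along the course; by set label these were 0, 1216 and 65.6%. The fitted log2 fold change of MSTRG.28809 was 2.85 (adjusted p = 1) with the title number and 4.30 (adjusted p = 0.782) with the set label as a block, against 4.99 (adjusted p = 0.532) without one. For the smallest library compared, 8328070 counts limit what can be seen of IDs under a few CPM.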

Other observations

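The 17 IDs that DESeq2 called higher at days 10 to 14 were of 2 kinds, a division made after their values were seen. In 12 of them 1 library held between 52.7% and 94.9% of the summed CPM of the window, and 3 of these 12 were called in the course. In the other 5 no library held more than 42.2%, and all 5 were called in the course as higher. Replicate 5 was the highest library for 8 of the 17 and replicate 2 for 6. Of all 19 IDs, 9 had an ID number within 5 of another called ID, and each of these shared its highest library of days 10 to 14 with that neighbour; positions are not given in the files, so whether such IDs are pieces of 1 gene or neighbouring genes was not tested.

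MSTRG.28809 was highest in the libraries numbered 5 and 2 both at days 3 to 4 (248 and 66.7 CPM, against 3.71 to 19.7 CPM in the others) and at days 10 to 14 (353 and 64.6 CPM). At days 6 to 8 the libraries of these numbers held 1.89 and 3.71 CPM, and replicate 4 was highest with 9.05 CPM. The labels do not say that a number marks a shared animal or culture. The libraries numbered 6 at days 6 to 8 and 3 at days 10 to 14 carry the same index. The labels name no sequencing pool, and the part of a pool in the step was not tested.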
